A study of Mus musculus with 6 samples.

Results

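The spliceosome and hnRNP genes described here were the protein-coding genes whose mouse symbol starts with Snrp, Lsm, Sf3a, Sf3b, Prpf, Srsf or Hnrnp and which had a mean of at least 10 raw counts over 6 libraries of lung fibroblasts (LFs). Of 79 protein-coding genes with such a symbol, 75 were kept, out of 55364 genes listed. They were 12 core snRNP genes (Snrp), 12 LSm genes, 9 SF3a and SF3b genes, 13 PRPF genes, 10 SR genes (Srsf) and 19 hnRNP genes. The rule itself uses no expression difference. Prpf4 lay just inside the threshold with a mean of 10.0 counts, and Lsm5 just outside it with 8.67. The other symbols left out were Hnrnph2, Srsf12 and Lsmem1, the last of which encodes a membrane protein and no LSm protein.

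Both groups were primary mouse LFs, with 3 libraries each, that were starved of serum and exposed to 10 ng/ml TGFβ for 24 h, so that the untreated state was not compared. The first group was wild type (wt). The second is labelled TKS5 knockout and is named Tks5+/- after the paper, which describes mice heterozygous for a Sh3pxd2a allele deleted in all tissues by a CMV-driven Cre recombinase, on a C57Bl6/J background and 8 to 10 weeks old. Tks5, the product of Sh3pxd2a, is the scaffold protein of podosomes. The labels do not name the animals behind the 3 libraries of a genotype. The paper took its LFs from wt and Tks5+/- littermates and calls its samples independent. It does not say which mice or litters the sequenced libraries came from. The p-values measure the spread between these libraries.

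Pre-mRNA splicing is carried out by the spliceosome, which assembles on each intron from small nuclear ribonucleoproteins (snRNPs). A snRNP holds a small nuclear RNA wrapped in a ring of Sm proteins, or of LSm proteins in the case of U6, together with proteins of its own. SR proteins bind exons and mostly favour the use of nearby splice sites, whereas hnRNP proteins coat pre-mRNA and often oppose it, and members of both families also act in mRNA export, stability and translation. Many SR and hnRNP genes control their own mRNA by splicing in an exon that leads to its decay, a form that reads from the end of a transcript do not tell apart.

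QuantSeq reads the last stretch of polyadenylated transcripts, about 1 read per transcript. The raw counts added up to 1344507 to 2369882 per wt library and 1979084 to 2329155 per Tks5+/- library, and levels are given as CPM, which are counts scaled to a common library size by the TMM method. Each log2 fold change is Tks5+/- minus wt, and each adjusted p comes from edgeR's quasi-likelihood F test with Benjamini-Hochberg adjustment over 10346 genes. A gene was called where the adjusted p was under 0.05 and the fold change at least 1.2. The summed CPM of 10 fibroblast markers was 3880 to 5260 in wt and 5610 to 8720 in Tks5+/- libraries, with 4 of the 10 called higher and 1 lower (Pdgfrb, log2 fold change -0.996, adjusted p = 0.00203). Macrophage markers summed to 273 to 1670 in wt, with the highest value in replicate 3, and 120 to 138 in Tks5+/- libraries. Endothelial (83.5 to 114 against 19.3 to 26.6), mesothelial (20.9 to 25.1 against 3.58 to 12.1) and epithelial markers (14.4 to 34.9 against 0 to 0.512, with 4 of 8 listed at 0 in every library) were also lower in the Tks5+/- libraries. The summed CPM of 15 cell cycle genes was 312 to 508 in wt and 785 to 1230 in Tks5+/- libraries. Of the 13 tested, 6 were called higher and 0 lower (46.2% called). Among all genes tested, 44.9% were called, 22.8% higher and 22.1% lower, and the fibroblast marker counts above stand beside the same shares. The part of these marker and cell cycle differences in the values below was not tested. In bulk RNA, a change in the make-up of the cells and a change of the RNA per cell cannot be told apart. Sh3pxd2a itself was at 113 ± 16.5 CPM in wt and 138 ± 11.1 CPM in Tks5+/- libraries (SD, n = 3 each, log2 fold change 0.29, adjusted p = 0.249). Sh3pxd2a was called higher once transcript length was corrected for (1.0, adjusted p = 0.000519), and also when GC was included (1.15, adjusted p = 0.000112). Its reads come from the end of the transcript, outside the deleted exon. The paper describes more than 1 deleted allele and does not say which the sequenced libraries carried. Whether such end reads fall in these heterozygotes is not known here. The genotype labels were therefore not checked by these counts, and every direction below rests on the labels.

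Splicing genes moved in both directions. Most genes of the Sm and LSm rings, the SF3b genes Sf3b5 and Sf3b6, 5 of the 10 SR genes and Hnrnpc were higher in Tks5+/- LFs, while Sf3a2, Sf3b2, Sf3b3, 4 PRPF genes and Hnrnpul2 were lower. Of the 74 members tested, 28 were called higher and 11 lower, and 35 were not called. Among those called, Lsm7 had fewer than 10 counts in every wt library and Prpf3 in every Tks5+/- library. These members met the count rule only through the genotype where they were high, so their calls are weak evidence of a direction. The called members made up 52.7% of those tested, against 44.9% of all genes tested. The share called higher was 37.8% against 22.8% of all genes, and the share called lower was 14.9% against 22.1%. The median log2 fold change of the members was 0.31, against -0.046 over all genes tested. In 32 members all Tks5+/- libraries lay above all wt libraries and in 13 all lay below, whereas all genes did so in 26.1% and 27.6% of cases. For a single gene, an exact two-sided permutation test of 3 libraries against 3 cannot give a p below 0.1.

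**Figure D1:**
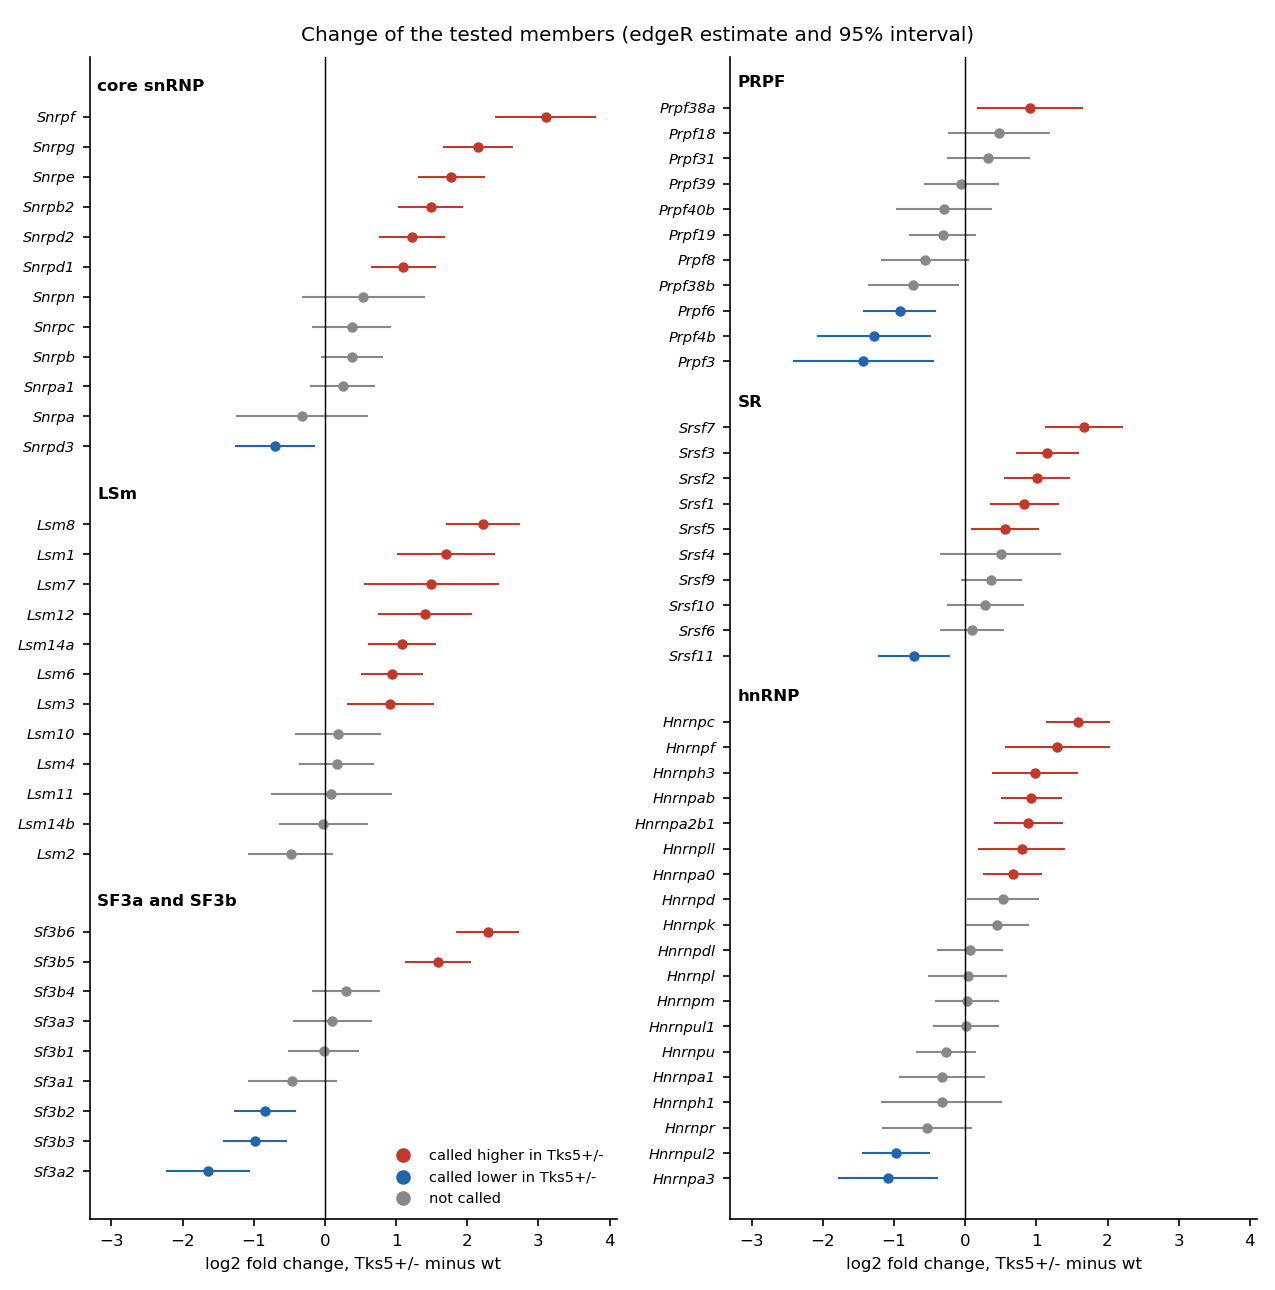
Log2 fold change between Tks5+/- and wt LFs of the tested members, by group and with 1 PRPF gene not shown, with points for the edgeR estimate, lines for its 95% interval and colours for the call. The highest values were those of Snrpf (3.10), Sf3b6 (2.29) and Lsm8 (2.22), and the lowest that of Sf3a2 (-1.65).

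The split depended on the scaling. With library totals alone in place of TMM, the median of all genes moved to -0.47, and 19 members were called higher and 19 lower. The shares of all genes called under this scaling are not given here, so these counts do not compare the members with all genes. Of the 28 members called higher, 19 stayed so under this scaling, and the calls of Lsm3, Lsm7, Prpf38a, Srsf1, Srsf5, Hnrnpa0, Hnrnpa2b1, Hnrnph3 and Hnrnpll were lost. All 11 called lower stayed lower, and Lsm2, Sf3a1, Prpf8, Prpf19, Prpf38b, Hnrnpa1, Hnrnpr and Hnrnpu were called lower in addition. With DESeq2, the calls of Lsm3, Lsm7, Prpf38a, Srsf5 and Hnrnpll (higher) and of Snrpd3, Prpf3, Prpf4b, Srsf11 and Hnrnpa3 (lower) were lost. No called member turned its direction under RLE, upper-quartile or library-total scaling or in the authors' normalized counts.

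Promoter sequence was compared as a feature that the choice by symbol did not use. In the RefSeq windows of GRCm38.p6, which run from 250 bases before to 50 after a start site, 64 of the 75 members were matched by symbol. The ETS factor motif CCGGAAGT, searched on both strands, was in a window of 11 members (17.2%), against 5.69% of 17492 protein-coding genes. It was found in 4 of the 9 matched members called lower, in 3 of the 23 called higher and in 4 of the 31 not called. An E-box (CACGTG, its own reverse complement) was in 8 members (12.5%, against 8.91%), and the YY1 motif ATGGCGGC was in 6 (9.38%, against 3.50%), all of them among those not called. The motif TATAAA was in 7 (10.9%, against 14.8%) and CCAAT in 32 (50%, against 42.3%). The 17492 genes were not limited to genes with counts in these libraries, whereas the members were. The shares among expressed genes alone were not computed. These matches of letters are a description of the windows and not of factor binding. The stretches around the ETS motif of the 5 members named by rule, with the motif in capitals and each read 5′ to 3′ on the strand of the gene, were as follows. Snrpe was called higher, and the other 4 were called lower. Counted from the RefSeq start site of its own window, the motif begins 6 and 20 bases after that site in Snrpe and Prpf6 and lies before it in Sf3b2, Srsf11 and Prpf4b. For Prpf4b, Prpf6 and Srsf11 this start site lies inside the longer gene span of GENCODE, and Srsf11 has another start site upstream.
Snrpe (chr1:133610256-133610285, reverse strand): gggtcttgcttCCGGAAGTcgctttccgag
Sf3b2 (chr19:5295450-5295479, reverse strand): ggattacgcaaCCGGAAGTttctggaagta
Prpf4b (chr13:34875447-34875476, forward strand): gccccctagccCCGGAAGTtacgttccgcg
Prpf6 (chr2:181601328-181601357, forward strand): cccagctctctACTTCCGGtgcgcgggtga
Srsf11 (chr3:158031773-158031802, reverse strand): actggacgcgtACTTCCGGgatatgggcgc

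Among the core snRNP genes, 6 of 12 (50%) were called higher and 1 (8.33%) lower, against 22.8% and 22.1% of all genes. Their median log2 fold change was 0.82. Of the 6 called higher, 5 belong to the Sm ring, the heptamer that closes around the Sm site of U1, U2, U4 and U5 RNA. Of the 8 Sm genes tested, 5 were called higher and 1 lower (median 1.16). Together they gave 644 to 699 CPM in wt and 1220 to 1870 CPM in Tks5+/- libraries. Snrpg, which encodes SmG (chromosome 6, 86371304 to 86379328 of GRCm38), was at 116, 118 and 103 CPM in wt replicates 1, 2 and 3 and at 346, 632 and 511 CPM in the Tks5+/- replicates. Every Tks5+/- library was above every wt library, with replicate 1 the lowest of them. The mean went from 112 ± 8.16 to 496 ± 144 CPM (SD, n = 3 each), a log2 fold change of 2.14 with a standard error of 0.23 (adjusted p = 2.35e-07). Snrpf, the gene of SmF (chromosome 10, 93583029 to 93589706), was at 7.72, 6.42 and 10.0 CPM in wt and at 66.4, 106 and 40.9 CPM in Tks5+/- LFs. In this fit it was the largest log2 fold change of all members, 3.10, with a standard error of 0.34 (adjusted p = 3.76e-07), or 8.59-fold. Snrpf was read shallowly in wt, with 12, 12 and 27 counts, against 121, 182 and 80 in Tks5+/- libraries. Its last exon overlaps Ccdc38 on the opposite strand, and whether the counting kept to 1 strand is not given in the sources used here. SmE, the neighbour of SmF and SmG in the ring, is encoded by Snrpe (chromosome 1, 133603871 to 133610291), which was at 85.6, 74.9 and 74.2 CPM in wt and at 217, 343 and 243 CPM in Tks5+/- LFs (log2 fold change 1.78, standard error 0.22, adjusted p = 1.42e-06). The end of Snrpe is nearly identical to that of its retrogene Snrpert, on which 45 counts fell over the 6 libraries.

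The remaining Sm genes did not share 1 pattern, and the following values were singled out after they were seen. Snrpd1 (log2 fold change 1.10, adjusted p = 0.000252) and Snrpd2 (1.23, adjusted p = 9.38e-05), whose products pair in the ring, rose. Corrected for transcript length and GC content, Snrpd1 was at 0.30 and not called (adjusted p = 0.232). Snrpb, the gene of SmB, was at 118 ± 21.8 CPM in wt and 152 ± 0.780 CPM in Tks5+/- LFs and was not called (log2 fold change 0.37, 95% interval -0.05 to 0.80, adjusted p = 0.140). Snrpn, the imprinted relative of Snrpb, varied from 9.36 to 39.0 CPM among the Tks5+/- libraries and was not called (adjusted p = 0.293), except without Tks5+/- replicate 2 (0.94, adjusted p = 0.0316). Snrpd3, the gene of SmD3, was the one core snRNP gene called lower, at 95.3, 99.0 and 175 CPM in wt and 51.0, 79.6 and 97.7 CPM in Tks5+/- LFs. The groups overlapped, and wt replicate 3 stood above all other libraries. For Snrpd3 the log2 fold change was -0.70, with a standard error of 0.26 and an adjusted p of 0.0348. It was -0.35 (adjusted p = 0.282) without wt replicate 3, which also had the highest summed macrophage markers, and the call was also lost without Tks5+/- replicate 1 (-0.43, adjusted p = 0.213) or replicate 2 (-0.69, adjusted p = 0.112), or with the length correction (-0.65, adjusted p = 0.0504).

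Of the 4 members with a Snrp symbol that belong to U1 or U2 snRNP and not to the ring, Snrpb2 was called. Snrpb2 encodes the U2 protein B″, which binds U2 RNA together with the protein of Snrpa1, and it was at 58.6, 55.7 and 80.8 CPM in wt and at 182, 190 and 178 CPM in Tks5+/- LFs (log2 fold change 1.49, adjusted p = 7.91e-06). Its partner Snrpa1 was at 56.2 ± 5.50 and 66.7 ± 9.62 CPM (SD, n = 3 each), with a log2 fold change of 0.25 (95% interval -0.20 to 0.69). The U1 genes Snrpa (-0.33, adjusted p = 0.568) and Snrpc (0.38, adjusted p = 0.250) were not called. Snrpc was called higher with the length correction (0.82, adjusted p = 0.0157), and genes with an end like that of Snrpc took 271 counts.

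The LSm genes had a median log2 fold change of 0.93. By edgeR, 7 of 12 (58.3%) were called higher and 0 lower, against 22.8% and 22.1% of all genes. At an unadjusted p under 0.05 the group also held 7 genes, and DESeq2 kept 5 of the 7 calls. LSm proteins form 2 rings that share LSm2 to LSm7: with LSm8 the ring sits on U6 RNA in the nucleus, and with LSm1 it takes part in mRNA decay in the cytoplasm. The genes that set the 2 rings apart both rose. Lsm8 (chromosome 6, 18848579 to 18855751) was at 35.4, 29.4 and 36.3 CPM in wt and at 120, 218 and 137 CPM in Tks5+/- LFs, a log2 fold change of 2.22 with a standard error of 0.25 (adjusted p = 3.19e-07). Lsm1 (chromosome 8, 25785288 to 25803975) was at 7.08, 5.89 and 7.79 CPM in wt and at 20.3, 25.2 and 23.0 CPM in Tks5+/- LFs, a log2 fold change of 1.70 with a standard error of 0.32 (adjusted p = 0.000195). In neither gene did the groups overlap. Lsm1 was read shallowly, with 11 to 21 counts per wt library.

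The shared ring genes were split. Lsm3 (log2 fold change 0.92), Lsm6 (0.95) and Lsm7 (1.49) were called higher, with adjusted p values of 0.0119, 0.000733 and 0.00975. Lsm7 rested on 3 to 21 counts per library, beside 48 counts over the 6 libraries on genes with a like end, and was not called with the length correction (1.02, adjusted p = 0.0779) or with library totals (1.08, adjusted p = 0.0539). The call of Lsm3 was lost without wt replicate 2 (0.84, adjusted p = 0.0583), with library totals (0.50, adjusted p = 0.161) and with length and GC correction (0.60, adjusted p = 0.105). Lsm4 was at 31.6 ± 4.73 and 35.1 ± 6.34 CPM (SD, n = 3 each) and not called (0.16, 95% interval -0.35 to 0.68). Lsm2 was below wt in every Tks5+/- library, at 20.0, 25.1 and 24.8 CPM in wt and 13.7, 17.0 and 19.4 CPM in Tks5+/- LFs, but was not called (-0.48, adjusted p = 0.167). It was called lower with library totals (-0.91, adjusted p = 0.0105), when lengths were corrected for (-0.78, adjusted p = 0.0287) and when GC content was corrected for as well (-0.97, adjusted p = 0.00766). Lsm5, the remaining ring gene, had 0, 0 and 2 counts in wt and 16, 20 and 14 in Tks5+/- libraries. Its Tks5+/- mean of 9.22 CPM was at least 5.95-fold above a floor of 3 counts in each wt library (1.55 CPM). This bound leaves out the spread of the Tks5+/- libraries. Lsm5 passed the filter on low counts only through the Tks5+/- libraries, so its value is weak evidence of a direction. Genes with an end like that of Lsm5 took 14 counts over the 6 libraries. Outside the rings, Lsm14a, which encodes a P-body protein, was at 120, 79.7 and 76.0 CPM in wt and at 162, 224 and 195 CPM in Tks5+/- LFs (log2 fold change 1.08, standard error 0.22, adjusted p = 0.000453). Its relative Lsm14b was not called (-0.02, 95% interval -0.63 to 0.59). Lsm12 rose by 1.40 (adjusted p = 0.000928), whereas Lsm10 (0.18) and Lsm11 (0.09), which belong to the U7 snRNP of histone mRNA processing, were not called.

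**Figure D2:**
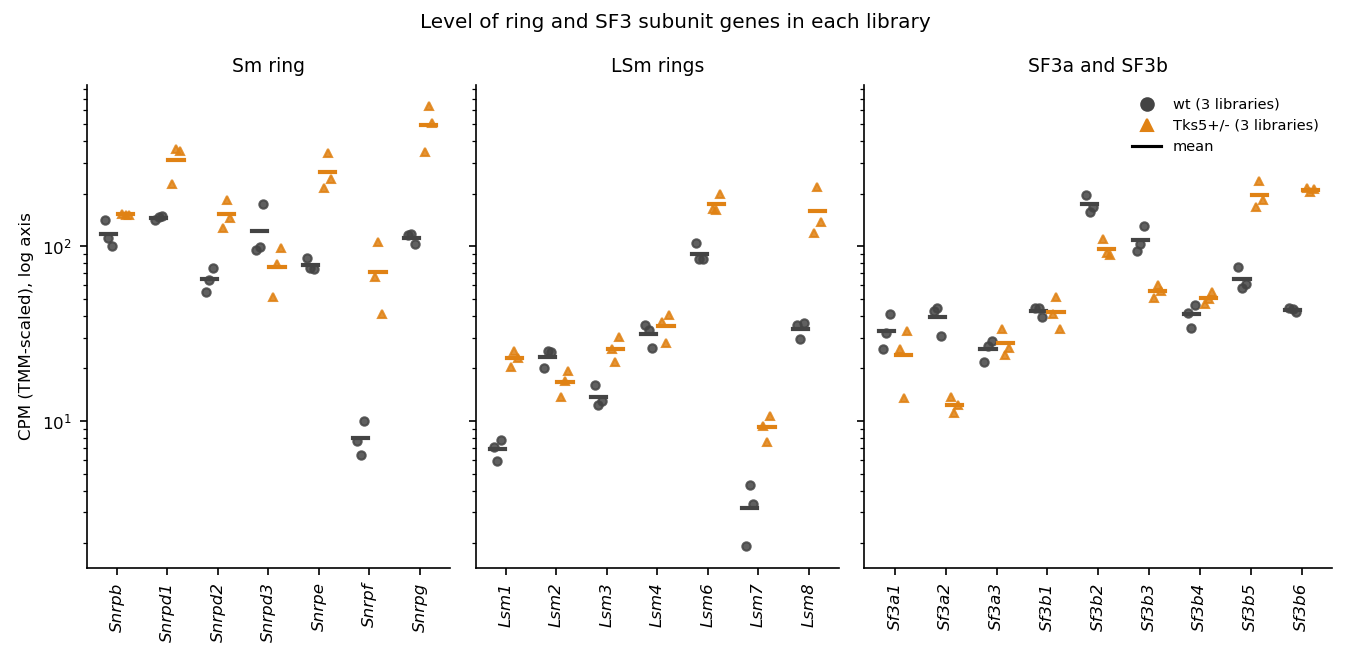
CPM on a log axis of 7 Sm ring genes, 7 LSm ring genes and the 9 SF3a and SF3b genes, with a point for each of 3 wt and 3 Tks5+/- libraries and a bar for the mean. Subunits of 1 complex moved apart, as in SF3b, where Sf3b6 was near 43.4 CPM in wt and 211 CPM in Tks5+/- LFs while Sf3b3 went from 109 to 55.3 CPM.

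SF3a and SF3b are the protein complexes of the U2 snRNP that hold it at the branch site. Their genes had a median log2 fold change of -0.02, which hid opposite moves. Of the 9, 3 (33.3%) were called lower and 2 (22.2%) higher, against 22.1% and 22.8% of all genes. Sf3b6, which encodes the small subunit p14 at the branch point (chromosome 12, 4817544 to 4827659), had the smallest adjusted p of all members in this fit. It was at 44.4, 43.9 and 41.9 CPM in wt and at 216, 205 and 213 CPM in Tks5+/- LFs, with little spread within either group (log2 fold change 2.29, standard error 0.21, adjusted p = 2.66e-08). Sf3b5, the gene of another small subunit (chromosome 10, 13005343 to 13009183), was at 76.6, 57.8 and 60.8 CPM in wt and at 167, 236 and 184 CPM in Tks5+/- LFs (log2 fold change 1.59, standard error 0.22, adjusted p = 4.43e-06). The larger subunits were lower or not called. Sf3b2 (chromosome 19, 5273932 to 5295455) was at 196, 157 and 169 CPM in wt and at 110, 91.9 and 89.0 CPM in Tks5+/- LFs (log2 fold change -0.84, standard error 0.20, adjusted p = 0.00199). Sf3b3, added here after its values were seen, fell from 109 ± 18.4 to 55.3 ± 4.89 CPM (SD, n = 3 each, log2 fold change -0.98, adjusted p = 0.000738). Sf3b1, the subunit mutated in myelodysplasia, was at 42.7 ± 2.95 and 42.1 ± 8.90 CPM (-0.02, 95% interval -0.50 to 0.46). Sf3b4 was not called (0.30, adjusted p = 0.288), nor was Phf5a, the SF3b gene that bears another name (0.48, adjusted p = 0.0653).

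Of the 3 SF3a genes, Sf3a2 alone was called. It lies on chromosome 10 (80798198 to 80804924) and was at 42.5, 44.4 and 30.8 CPM in wt and at 13.7, 11.1 and 12.3 CPM in Tks5+/- LFs, so that every Tks5+/- library was below every wt library. For Sf3a2 the log2 fold change of -1.65, with a standard error of 0.28 and an adjusted p of 5.17e-05, was the lowest log2 fold change of all members in this fit. Sf3a1 (-0.46, 95% interval -1.07 to 0.15) and Sf3a3 (0.10, 95% interval -0.43 to 0.64) were not called. All 5 calls among the SF3a and SF3b genes held in each of the 6 fits that left out 1 library. The median of the group changed sign among those fits, from -0.15 without Tks5+/- replicate 2 to 0.16 without Tks5+/- replicate 3.

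The ratio of the counts of 2 members inside a library does not depend on how libraries are scaled. Such a ratio is not corrected for transcript length, which differed within pairs. The longest transcript had 1774 bases in Sf3b6 and 4525 in Sf3b3, but 3305 in Lsm8 and 1586 in Lsm2. With length and GC correction, the log2 fold change was 1.87 for Sf3b6 and -0.82 for Sf3b3. The pairs below were chosen for their difference and are given without a test. The ratio of Sf3b6 to Sf3b3 counts was 0.469, 0.427 and 0.323 in wt and 4.28, 3.40 and 3.86 in Tks5+/- libraries, a 9.54-fold change of the geometric mean. For Snrpf to Snrpb it was 0.0543, 0.0577 and 0.10 in wt and 0.434, 0.703 and 0.268 in Tks5+/- libraries. For Snrpd2 to Snrpd3, whose products sit in the same ring, it was 0.574, 0.649 and 0.431 against 2.48, 2.32 and 1.50. The ratio of Lsm8 to Lsm2 was 1.77, 1.17 and 1.46 in wt and 8.72, 12.8 and 7.05 in Tks5+/- libraries. Lsm8 to Lsm1, the genes that set the rings apart, went from 5.00, 5.00 and 4.67 to 5.89, 8.65 and 5.96, a 1.38-fold change of the geometric mean.

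**Figure D3:**
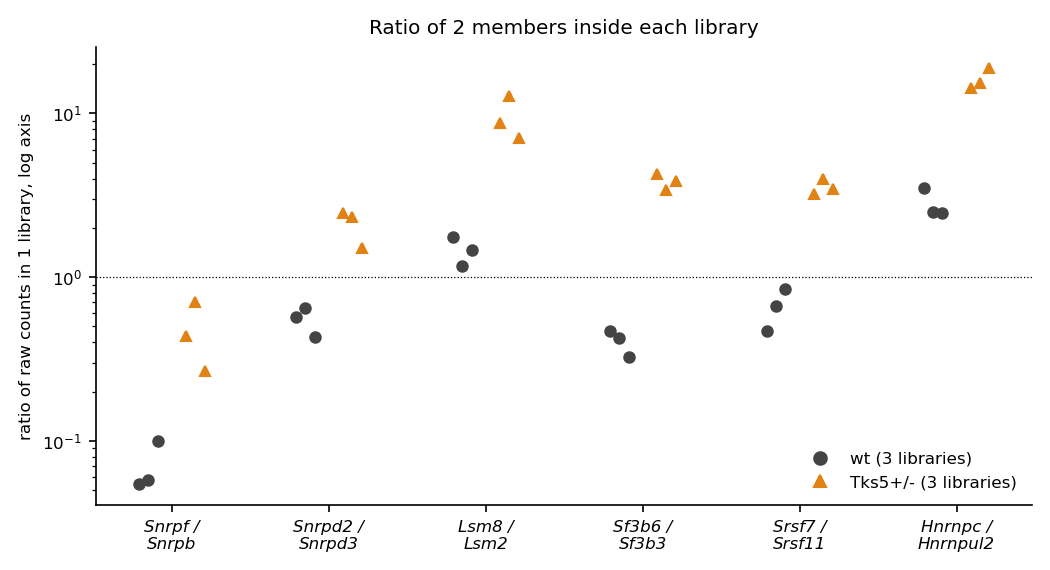
Ratio of the raw counts of 2 members inside each library, on a log axis, for 6 pairs chosen after their values were seen, with points for 3 wt and 3 Tks5+/- libraries. In each pair the Tks5+/- points lie above the wt points, from 0.323 to 0.469 against 3.40 to 4.28 for Sf3b6 to Sf3b3.

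The PRPF genes, named after yeast pre-mRNA processing mutants, had 4 members called lower and 1 higher of 12 tested, with a median log2 fold change of -0.44. This median was -0.071 with the length correction and 0.013 with length and GC correction. Together with the SF3a and SF3b genes they were the groups with more members called lower than higher. Of the PRPF genes, 41.7% were called, against 44.9% of all genes. The shares were 33.3% lower and 8.33% higher, against 22.1% and 22.8% of all genes. Whether these counts differ from the shares of all genes was not tested. Prpf6 (chromosome 2, 181591868 to 181655660), which bridges the U5 and U4/U6 snRNPs, was at 59.2, 60.5 and 47.1 CPM in wt and at 32.4, 33.9 and 21.5 CPM in Tks5+/- LFs (log2 fold change -0.92, standard error 0.24, adjusted p = 0.00371). The groups did not overlap. Prpf4b, the gene of a spliceosomal kinase, was at 12.9, 13.4 and 23.4 CPM in wt and at 9.33, 4.68 and 6.65 CPM in Tks5+/- LFs (log2 fold change -1.28, standard error 0.38, adjusted p = 0.00837). Without wt replicate 3 it was -0.92 (adjusted p = 0.0949), and with the length correction -0.75 (adjusted p = 0.118). Prpf3, a U4/U6 gene named after its values were seen, was called lower (-1.43, adjusted p = 0.0164) on 3 to 24 counts per library. It was called in 2 of the 6 fits that left out 1 library, while Prpf3 was also lost in the authors' normalized counts (-1.20, adjusted p = 0.0594). The calls lost by leaving out a library had adjusted p values of 0.0562 (without wt replicate 3), 0.0617 (without wt replicate 2), 0.0583 (without Tks5+/- replicate 1) and 0.0896 (without Tks5+/- replicate 2).

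The other PRPF genes were not called, or their call rested on single libraries. Prpf19, the ubiquitin ligase that gives its name to a complex joining the spliceosome at its activation, was at 75.3, 62.1 and 65.3 CPM in wt and at 44.4, 66.1 and 52.2 CPM in Tks5+/- LFs, where the groups overlapped (-0.32, 95% interval -0.77 to 0.14, adjusted p = 0.255). Prpf8, the scaffold at the catalytic centre, was not called (-0.57, 95% interval -1.17 to 0.04, adjusted p = 0.120), nor was Prpf31 (0.33, adjusted p = 0.349). Prpf38a, the one PRPF gene called higher, was at 16.1, 5.89 and 10.8 CPM in wt and at 18.1, 16.4 and 26.1 CPM in Tks5+/- LFs (log2 fold change 0.91, standard error 0.35, adjusted p = 0.0380). Its call was lost on leaving out wt replicate 2 (0.62, adjusted p = 0.206), Tks5+/- replicate 3 (0.71, adjusted p = 0.158) or wt replicate 3 (0.91, adjusted p = 0.0803), and with length and GC correction (0.78, adjusted p = 0.0770). Prpf4, with 8, 18 and 9 counts in wt and 9, 7 and 9 in Tks5+/- libraries, did not pass the filter on low counts and was not tested.

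Of the 10 SR genes, 5 (50%) were called higher and 1 (10%) lower, against 22.8% and 22.1% of all genes. Their median log2 fold change was 0.53. Srsf7 (chromosome 17, 80200080 to 80207307), which encodes the zinc knuckle SR protein 9G8, was at 27.0, 31.6 and 51.2 CPM in wt and at 86.7, 121 and 146 CPM in Tks5+/- LFs (log2 fold change 1.67, standard error 0.26, adjusted p = 2.05e-05). Srsf3 (chromosome 17, 29032628 to 29043373), the smallest SR protein and an adaptor of mRNA export, was at 109, 119 and 102 CPM in wt and at 196, 273 and 267 CPM in Tks5+/- LFs (log2 fold change 1.15, standard error 0.21, adjusted p = 0.000109). Srsf2, also known as SC35, was at 66.9, 69.0 and 95.3 CPM in wt and at 132, 179 and 157 CPM in Tks5+/- LFs (log2 fold change 1.01, standard error 0.22, adjusted p = 0.000635). In all 3 genes the Tks5+/- libraries lay above the wt libraries, and for Srsf7 and Srsf2 wt replicate 3 was the highest of the wt libraries. The last exon of Srsf2 overlaps Mettl23 on the opposite strand.

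The other SR genes had smaller log2 fold changes. Srsf1, the founding member of the family, was singled out after its values were seen. It rose from 121 ± 18.2 to 216 ± 69.4 CPM (SD, n = 3 each, log2 fold change 0.83, adjusted p = 0.00505) and was not called with library totals (0.39, adjusted p = 0.140) or with the authors' normalized counts (0.54, adjusted p = 0.0581). Srsf5, also chosen afterwards, was just past the threshold (0.56, adjusted p = 0.0482) and was called in 2 of the 6 fits that left out 1 library. It was lost without Tks5+/- replicate 2 (0.37, adjusted p = 0.231), Tks5+/- replicate 3 (0.63, adjusted p = 0.0617), wt replicate 1 (0.42, adjusted p = 0.188) and wt replicate 2 (0.62, adjusted p = 0.0816). Srsf9 was at 188, 230 and 253 CPM in wt and at 291, 253 and 322 CPM in Tks5+/- LFs, values that met at 253 CPM (0.37, 95% interval -0.05 to 0.79, adjusted p = 0.144). Srsf6 was at 77.9 ± 10.5 and 83.7 ± 9.24 CPM (0.10, 95% interval -0.34 to 0.53), and Srsf10 (0.28) and Srsf4 (0.50) were not called. Srsf11, which encodes an SR-like protein, was the one SR gene called lower, at 57.9, 47.1 and 60.1 CPM in wt and 26.9, 30.4 and 42.5 CPM in Tks5+/- LFs (log2 fold change -0.72, standard error 0.24, adjusted p = 0.0167). This call was lost without Tks5+/- replicate 1 (-0.54, adjusted p = 0.0905), Tks5+/- replicate 2 (-0.63, adjusted p = 0.0697) or wt replicate 3 (-0.65, adjusted p = 0.0581).

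**Figure D4:**
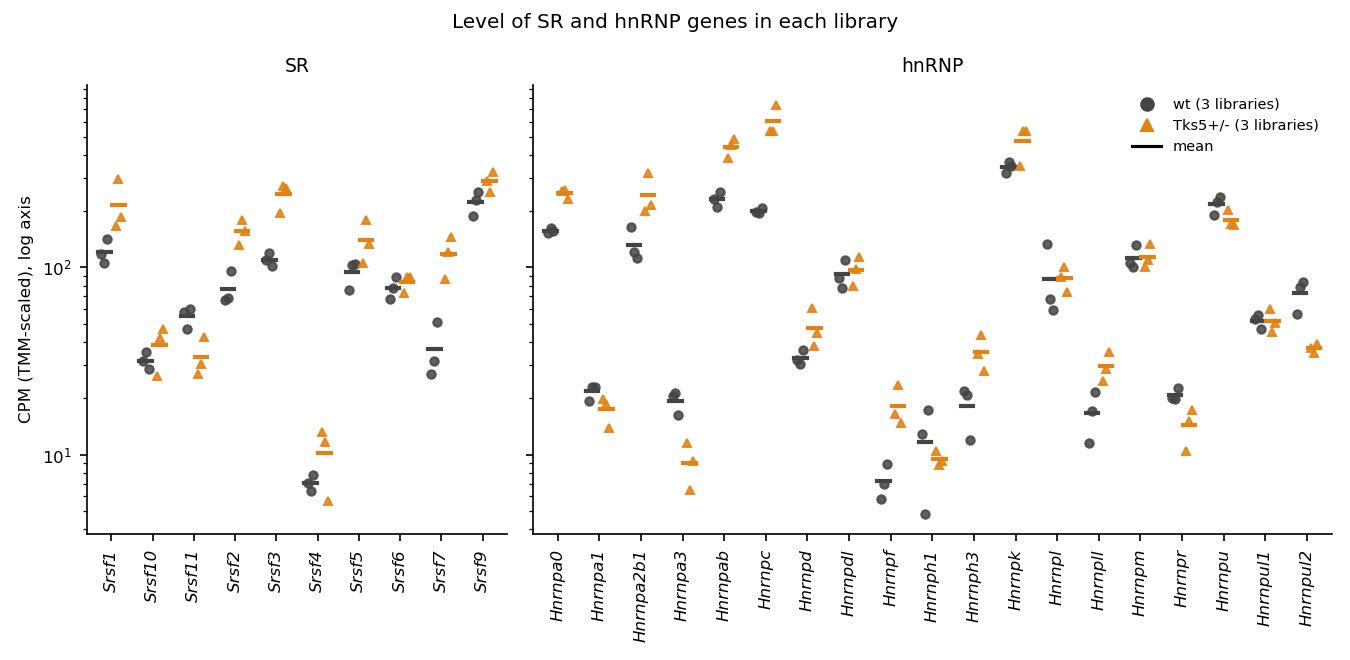
CPM on a log axis of the 10 SR genes and the 19 hnRNP genes, with a point for each of 3 wt and 3 Tks5+/- libraries and a bar for the mean. Hnrnpc was at 196 to 208 CPM in wt and 533 to 737 CPM in Tks5+/- libraries, while the points of Hnrnpm and Hnrnpul1 overlapped.

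Of the 19 hnRNP genes, 7 were called higher, 2 lower and 10 not at all. The share called, 47.4%, was near the 44.9% of all genes tested. It was 36.8% for higher and 10.5% for lower, against 22.8% and 22.1% of all genes. The median log2 fold change of the hnRNP genes was 0.07, beside -0.046 over all genes tested. Hnrnpc (chromosome 14, 52073377 to 52104028), whose product binds uridine tracts of nascent RNA, had the smallest adjusted p. It was at 198, 196 and 208 CPM in wt and at 533, 537 and 737 CPM in Tks5+/- LFs, so that the groups lay far apart beside the spread within them (log2 fold change 1.59, standard error 0.21, adjusted p = 2.87e-06). Hnrnpab (chromosome 11, 51600100 to 51606847), which encodes a relative of hnRNP D, was at 233, 211 and 253 CPM in wt and at 386, 453 and 487 CPM in Tks5+/- LFs (log2 fold change 0.93, standard error 0.20, adjusted p = 0.000688). Its last exon overlaps Phykpl on the opposite strand. Hnrnpul2 (chromosome 19, 8820010 to 8834143), a relative of the scaffold attachment protein hnRNP U, was at 56.6, 78.1 and 83.8 CPM in wt and at 37.3, 35.1 and 38.9 CPM in Tks5+/- LFs (log2 fold change -0.98, standard error 0.22, adjusted p = 0.00117). The 3 Tks5+/- libraries were close to each other and below all wt libraries.

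Members of the hnRNP A/B subfamily, chosen after their values were seen, did not move as 1 group. Hnrnpa2b1 (0.89, adjusted p = 0.00274) and Hnrnpa0 (0.67, adjusted p = 0.00750) were called higher, Hnrnpa1 was not called (-0.33, 95% interval -0.92 to 0.26), and Hnrnpa3 was called lower (-1.08, adjusted p = 0.0108), though not without Tks5+/- replicate 2 (-0.86, adjusted p = 0.0564) or with the length correction (-0.74, adjusted p = 0.0774). With library totals, Hnrnpa2b1 (0.45, adjusted p = 0.0896) and Hnrnpa0 (0.25, adjusted p = 0.290) were not called. Hnrnpa3 was among the members whose end recurs elsewhere in the genome: 26 other genes had a like end and 385 counts, against 11 to 44 counts per library on Hnrnpa3, so its value is uncertain. Of the hnRNP F/H genes, Hnrnpf rose from 7.22 ± 1.57 to 18.2 ± 4.55 CPM (SD, n = 3 each, log2 fold change 1.29, adjusted p = 0.00435) and Hnrnph3 from 18.2 ± 5.51 to 35.3 ± 7.61 CPM (0.98, adjusted p = 0.00803; without wt replicate 3 0.72, adjusted p = 0.0639, and with length and GC correction 0.65, adjusted p = 0.0777). Hnrnph1 was not called (-0.33, adjusted p = 0.525), and its value is uncertain, since its end recurs in Setd1b, which had 590 counts over the 6 libraries. Hnrnpll was called higher (0.79, adjusted p = 0.0280) but not without Tks5+/- replicate 3 (0.68, adjusted p = 0.105), and not without wt replicate 1 (0.60, adjusted p = 0.124) or 2 (0.79, adjusted p = 0.0735), and its relative Hnrnpl was not called (0.03, 95% interval -0.51 to 0.58). Hnrnpk, the hnRNP gene with the most counts, was at 321, 367 and 347 CPM in wt and at 347, 535 and 532 CPM in Tks5+/- LFs. Tks5+/- replicate 1 stood among the wt libraries, and Hnrnpk was not called (0.45, adjusted p = 0.0868), except without that library (0.68, adjusted p = 0.00947). In the authors' normalized counts Hnrnpk had the opposite sign (-0.14, adjusted p = 0.59). Hnrnpd was not called either (0.53, adjusted p = 0.0765), but was called higher without Tks5+/- replicate 2 (0.69, adjusted p = 0.0350), with the length correction (1.01, adjusted p = 0.00150), with length and GC correction (0.83, adjusted p = 0.00693) and in the authors' normalized counts (0.60, adjusted p = 0.0432). Hnrnpm (0.02), Hnrnpdl (0.07), Hnrnpul1 (0.01), Hnrnpu (-0.27) and Hnrnpr (-0.54) were not called. Hnrnpu was called lower in the authors' normalized counts (-0.52, adjusted p = 0.047).

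The members called higher had shorter transcripts than the others. The median length of the longest transcript was 2402 bases in the 28 members called higher, 3222 in the 11 called lower and 3522 in the 35 not called, against 3204 over all genes tested. Across the 74 members, Spearman's rho of log2 fold change with this length was -0.47, beside -0.40 across 10339 genes with a known length, which share the same 6 libraries and are not replicates. It was -0.68 across the 19 hnRNP genes and -0.61 across the 12 core snRNP genes, but 0.22 across the 12 LSm genes and -0.03 across the 10 SR genes. Each library was therefore also corrected for its trend with transcript length and GC content. The median log2 fold change of the core snRNP genes was then 0.45, that of the LSm genes 0.74, of the SR genes 0.57 and of the hnRNP genes 0.32. The median of the PRPF genes moved from -0.44 to 0.01, and that of the SF3a and SF3b genes was -0.18. Of the called members, 23 of 28 stayed higher and 10 of 11 stayed lower, and none turned its direction. The calls of Snrpd1, Lsm3, Prpf38a, Srsf5, Hnrnph3 and Prpf4b were lost, while Hnrnpd was called higher and Lsm2 lower.

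**Figure D5:**
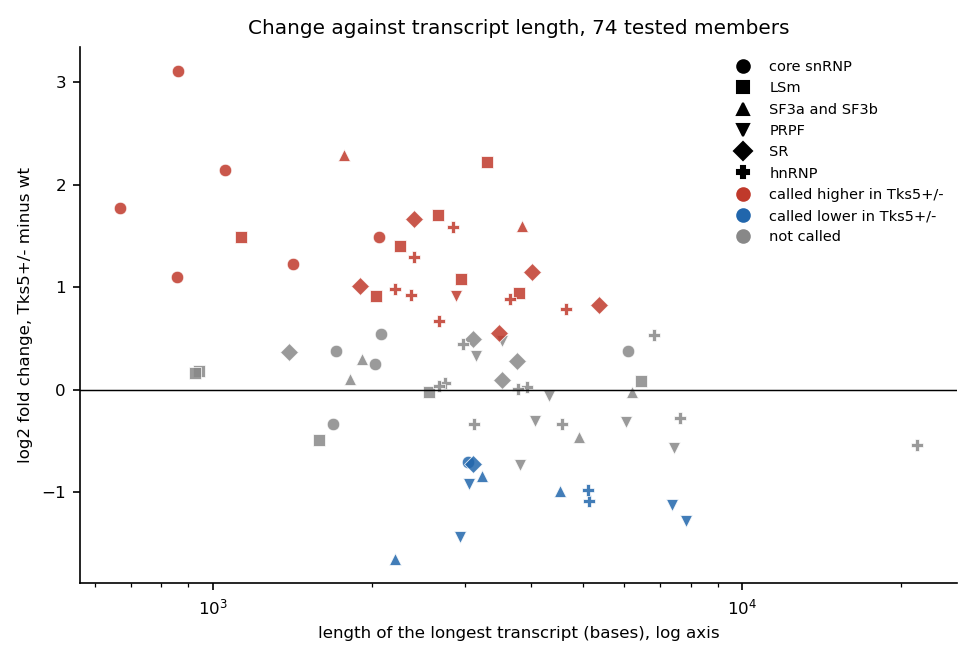
Log2 fold change between Tks5+/- and wt LFs against the length in bases of the longest transcript, on a log axis, for the 74 tested members, with shapes for the groups and colours for the call. The members called higher ran from 669 to 5362 bases and those called lower from 2213 to 7844 bases.

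Genes that act with the members were taken from lists of known partners, whose counts stand beside the 22.8% of all genes called higher and the 22.1% called lower. Among 11 tested genes of snRNP assembly, the SMN complex and its methylosome, 5 were called higher and 1 lower (54.5% called), with a median of 0.44. Gemin6, an Sm-fold subunit of the SMN complex, was at 14.8, 11.8 and 18.2 CPM in wt and at 41.7, 70.8 and 32.8 CPM in Tks5+/- LFs (log2 fold change 1.67, adjusted p = 0.000104). Clns1a, the chaperone that delivers Sm proteins to that complex, had a log2 fold change of 0.79 (adjusted p = 0.00379) and was not called with library totals (0.36, adjusted p = 0.151). Prmt5, the arginine methyltransferase of Sm proteins and the one called lower, was named after its value was seen (-0.79, adjusted p = 0.00868). Among 14 other snRNP proteins, 6 were called higher and 1 lower (50% called, median 0.15). Snrnp27, a small tri-snRNP protein, was at 36.8 ± 2.90 and 111 ± 12.3 CPM (SD, n = 3 each, log2 fold change 1.60, adjusted p = 3.96e-06), and Snu13, which binds U4 RNA and box C/D RNAs, was at 128 ± 27.5 and 377 ± 73.5 CPM (1.56, adjusted p = 7.38e-06).

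The other lists held genes called in both directions and had medians below 0. Of 28 U2 factors, helicases and later splicing factors, 5 were called higher and 4 lower (32.1% called, against 44.9% of all genes, median -0.12), with Rbm17 at 1.32 (adjusted p = 0.000229) and Cwc15 at 0.89 (adjusted p = 0.00161). Cwc15 was not called with library totals (0.47, adjusted p = 0.0696), the length correction (0.40, adjusted p = 0.127) or length and GC correction (0.17, adjusted p = 0.520). Of 16 SR-related proteins and SR kinases, 3 were called higher and 4 lower (43.8% called, median -0.45). The kinase gene Srpk2, whose product phosphorylates SR proteins, was at 87.5, 72.2 and 82.7 CPM in wt and at 52.7, 42.1 and 32.8 CPM in Tks5+/- LFs (-0.93, adjusted p = 0.00204; with the length correction -0.46, adjusted p = 0.0971), and Acin1 had a log2 fold change of -1.35 (adjusted p = 0.00213). Among 19 hnRNP-related RNA binding proteins, 3 were called higher and 4 lower (36.8% called, median -0.09). Mbnl1, a splicing regulator of the muscleblind family, fell from 159 ± 11.8 to 58.6 ± 4.15 CPM (SD, n = 3 each, log2 fold change -1.44, adjusted p = 7.20e-06), and Rbm3, the cold-inducible RNA binding protein, rose from 20.2 ± 2.43 to 56.8 ± 10.4 CPM (1.50, adjusted p = 4.12e-05). Of 12 exon junction, cap binding and export genes, 5 were called higher and 2 lower (58.3% called, median -0.21). Magoh, a core subunit of the exon junction complex, was at 50.2, 36.4 and 60.8 CPM in wt and at 164, 245 and 174 CPM in Tks5+/- LFs (1.97, adjusted p = 9.32e-07), and the export adaptor Alyref had a log2 fold change of 1.42 (adjusted p = 3.33e-05).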

How the data were processed

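Quant-Seq 3′ mRNA libraries of 3 wt and 3 Tks5+/- cultures of TGFβ-exposed LFs were analysed from the deposited raw counts per gene. The authors made these counts by trimming with Trim Galore, aligning with HISAT2 and then Bowtie2 to GRCm38, counting with metaseqR2 on whole UTR regions (at least 300 bases, 50 flanking bases) and summing per gene. The authors' second table, normalized with EDASeq and rounded, was used as a score in an alternative only, on the log2(value + 1) scale. The strand setting of the counting is not given in the sources used here.

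Symbols, positions and transcripts of 55104 of the 55364 genes came from GENCODE. The test was edgeR 4.0.16's robust quasi-likelihood F test (R 4.3.3) after filterByExpr and TMM scaling, with a common dispersion of 0.0429, at an adjusted p of 0.05 and a fold change of 1.2, with genotype alone in the model. A count of 0 allows up to 3 counts. A gene with at most 3 counts in each library of a genotype was given a bound against 3 counts per library. The steps were tested on simulated counts, with a small share of genes changed equally in both directions and no trend with transcript length. The simulation therefore does not test the scaling in these data, where 44.9% of genes were called. Like transcript ends were searched with blastn 2.17.0 (last 300 bases, at least 97% identity over 80 bases). Alternatives were RLE, upper-quartile and library-total scaling, DESeq2 1.42.0, limma-voom and the authors' table with limma 3.58.1, other count filters, corrections for transcript length and GC content (loess span 0.5), fits with the replicate number as a block, and fits without each library.

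The members, groups and gene lists were chosen with earlier results of these data known. Genes named in each group were the 3 called members with the smallest adjusted p, the member with the highest mean CPM and the first called member of the opposite direction, plus the members at the count threshold, Sh3pxd2a and up to 2 called genes per partner list. Other genes were named after their values were seen. The values of 1 PRPF gene named by this rule are not reported here. The authors' combined test was not used here. Tables and plots were made with pandas 2.3.3, numpy 2.4.6, scipy 1.17.1 and matplotlib 3.10.9.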

Additional observations from a re-analysis of the deposited data

How the results depend on the processing

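Of the members called, 23 of 28 higher and 6 of 11 lower stayed called in all 6 fits that left out 1 library, and no alternative turned the direction of a called member. The count called higher ran from 19 to 29 over all alternatives. The count called lower was 6 with DESeq2, 19 with library totals and 7 to 11 with each library left out. The shares of all genes called in these fits are not given here. For groups, scaling by library totals gave median log2 fold changes of 0.41 in core snRNP, 0.51 in LSm, -0.44 in SF3a and SF3b, -0.86 in PRPF, 0.10 in SR and -0.36 in hnRNP genes. Length and GC correction gave 0.45, 0.74, -0.18, 0.013 and 0.32 for core snRNP, LSm, SF3a and SF3b, PRPF and hnRNP genes, and 0.45, 0.74, -0.20, 0.007 and 0.32 with the replicate block added. Length correction alone gave 0.67, -0.10, -0.071 and 0.49 for core snRNP, SF3a and SF3b, PRPF and hnRNP genes, and GC correction alone 0.16 for hnRNP genes. The authors' table gave 0.67, 0.79 and 0.062 for core snRNP, LSm, and SF3a and SF3b genes. At least 10 counts in every library gave 1.04 for core snRNP and -0.36 for PRPF genes, which were at -0.38 with DESeq2 and -0.39 with no filter on low counts. With each library left out, the median was 0.73 to 0.98 in core snRNP, 0.85 to 1.04 in LSm, -0.15 to 0.16 in SF3a and SF3b, -0.56 to -0.34 in PRPF, 0.45 to 0.73 in SR and 0.061 to 0.40 in hnRNP genes. The cause of these shifts was not tested. The replicate block alone called 28 members higher and 11 lower, as without it. Libraries with the same number did not deviate together (correlations of -0.001, -0.06 and 0.08). The labels give no pairing, and these correlations cannot tell whether libraries of both genotypes came from the same litter. Depth limits the members read with few counts, such as Lsm7, Prpf3, Prpf4 and Snrpa, and the intervals cover counting error and the spread of 3 libraries.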
